A study of Mus musculus with 8 samples.

Results

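The genes described here encode parts of complexes I, II, III and V of oxidative phosphorylation in mouse stem cells. They were chosen by symbol, as every gene whose name begins with Nduf, Sdha to Sdhd, Sdhaf, Uqc or Atp5, which gave 81 of the 24354 genes listed. By the established placement of their proteins, 63 were counted as subunits and 14 as assembly factors. The other 4 carry such a symbol but were counted apart from both classes (Ndufa4, Ndufa4l2, Atp5s and Atp5sl). Under this rule complex I had 7 core subunits, 29 accessory subunits and 7 assembly factors, complex II had 4 subunits and 4 assembly factors, complex III had 8 and 3, and complex V had 15 subunits. Genes with other symbols, such as Cyc1 of complex III, and subunits not encoded in the nucleus fall outside the rule. The counts and shares given for complexes I, III and V are therefore partial.

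Poly-A RNA was sequenced from 4 groups of 2 libraries each. Embryonic stem cells (ESCs) were the E14 line, labelled wild type, in serum with LIF on mitomycin C-treated fibroblast feeders. Neural stem cells (NSCs) came from OG2/ROSA26 mice, which carry an Oct4-GFP reporter and a ubiquitously active LacZ gene, and grew without feeders with EGF and FGF2. Extended pluripotent stem cells (EPSCs) were a line from C57BL/6 8-cell embryos, also labelled wild type, grown on feeders with minocycline hydrochloride, dimethindene maleate, CHIR99021 and human LIF. Hybrid cells were tetraploid products of polyethylene glycol fusion between EPSCs and these NSCs, and grew in the EPSC medium, also on feeders. The question put to the hybrid cells was whether the somatic partner's energy metabolism took on the EPSC state. Each group was 1 line, so medium, genetic background and cell type cannot be told apart, and the p-values measure only the spread between repeated libraries.

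Oxidative phosphorylation makes most of the ATP of a respiring cell. Complex I takes electrons from NADH and complex II takes them from succinate, both pass them to ubiquinone, complex III passes them on to cytochrome c, and complex V uses the proton gradient built along the way to make ATP. Complex II is also an enzyme of the citric acid cycle, pumps no protons and is the only complex of the chain with all its subunits encoded in the nucleus. Pluripotent cells are known for high glycolysis, and neural stem cells are also more glycolytic than the neurons they form.

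The proximal promoters of 4 genes are shown first as sequence context for members described in detail, and no level was tested against them. Sdhd and Sdha encode subunits of one enzyme and were called in opposite directions between hybrid cells and NSCs, and Atp5g1 and Atp5g2 encode the same mature c subunit of complex V and differed in their shares. Each run holds 250 bases before the start site and 50 after it, 5′ to 3′ on the gene's own strand, from RefSeq on GRCm38.p6. Capitals mark matches on either strand to GCGCANGCG, the site of the respiratory regulator NRF1, and to CCGGAAG, the core bound by ETS factors such as GABPA. All 4 genes lie on the minus strand: Sdhd at chr9:50603800-50604099, Sdha at chr13:74350191-74350490, Atp5g1 at chr11:96075582-96075881 and Atp5g2 at chr15:102670998-102671297.
Sdhd: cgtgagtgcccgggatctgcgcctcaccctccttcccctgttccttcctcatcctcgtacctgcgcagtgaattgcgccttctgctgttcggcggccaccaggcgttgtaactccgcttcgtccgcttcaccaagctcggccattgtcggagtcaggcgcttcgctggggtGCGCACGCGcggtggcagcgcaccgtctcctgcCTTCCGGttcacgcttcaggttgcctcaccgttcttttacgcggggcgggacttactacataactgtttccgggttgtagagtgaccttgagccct
Sdha: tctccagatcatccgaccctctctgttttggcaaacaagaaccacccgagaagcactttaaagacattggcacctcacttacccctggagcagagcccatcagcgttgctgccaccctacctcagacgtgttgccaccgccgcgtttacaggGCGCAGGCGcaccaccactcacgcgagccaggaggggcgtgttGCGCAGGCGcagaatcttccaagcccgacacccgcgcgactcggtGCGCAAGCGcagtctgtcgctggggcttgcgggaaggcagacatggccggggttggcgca
Atp5g1: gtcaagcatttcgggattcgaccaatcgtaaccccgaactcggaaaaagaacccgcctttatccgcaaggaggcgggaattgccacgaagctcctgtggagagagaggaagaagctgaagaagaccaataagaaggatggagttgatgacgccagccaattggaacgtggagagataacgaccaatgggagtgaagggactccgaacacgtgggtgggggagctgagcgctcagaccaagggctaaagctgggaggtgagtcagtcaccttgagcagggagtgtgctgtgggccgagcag
Atp5g2: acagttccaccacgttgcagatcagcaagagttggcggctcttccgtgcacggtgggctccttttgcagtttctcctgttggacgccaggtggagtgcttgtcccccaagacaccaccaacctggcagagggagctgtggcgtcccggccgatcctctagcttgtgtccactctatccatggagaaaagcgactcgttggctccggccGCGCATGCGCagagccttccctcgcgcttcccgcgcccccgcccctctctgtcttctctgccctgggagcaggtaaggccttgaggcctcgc
The Sdhd window held 1 NRF1 match beginning 79 bases before the start site and 1 ETS match beginning 46 bases before it. The Sdha window held 3 NRF1 matches and no ETS match, the Atp5g1 window held neither, and the Atp5g2 window held 2 overlapping NRF1 matches on opposite strands. Of the 81 genes, 67 had a promoter entry, and 24 of these (35.8%) held an NRF1 match against 7.03% of 27025 genes with an entry and 15.2% of the 9978 that were also measured above the expression filter. The ETS core was present in 17 (25.4%), against 9.93% and 19.7%. A match describes letters in the window and not a bound site.

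Values are FPKM, sequenced fragments scaled for transcript length and library depth, as deposited. The neural markers were high in NSCs alone, where the 7 genes summed to 3676 to 3721 FPKM against 10.6 to 19.3 in the other 6 libraries, and the 6 pluripotency markers summed to 4371 to 5229 FPKM in ESCs, EPSCs and hybrid cells against 0.519 and 0.550 in NSCs. The summed FPKM of all genes was 415240 and 415412 in the NSC libraries and 600674 to 653796 in the other 6, so the scale of any comparison with NSCs was not settled by the files. In bulk RNA, fewer cells of a type and less RNA per cell cannot be told apart.

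All 81 genes passed the expression filter of a mean of at least 1 FPKM in at least 1 group, which kept 13239 genes. Their median level was 126.2 FPKM against 10.5 FPKM for all genes kept, and subunits (152.0 FPKM) stood above assembly factors (14.9 FPKM). The most abundant were subunits of the F1 head of complex V. Atp5b, the β subunit, averaged 1210 FPKM over the 8 libraries, and Atp5a1, the α subunit, averaged 622 FPKM. The least abundant were Ndufaf5, a modifier of the complex I subunit Ndufs7, at 7.11 FPKM and Atp5s, a coupling factor, at 4.72 FPKM. Paired libraries of a group differed by a median of 0.061 to 0.079 on the log2 scale over the 81 genes.

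**Figure D1:**
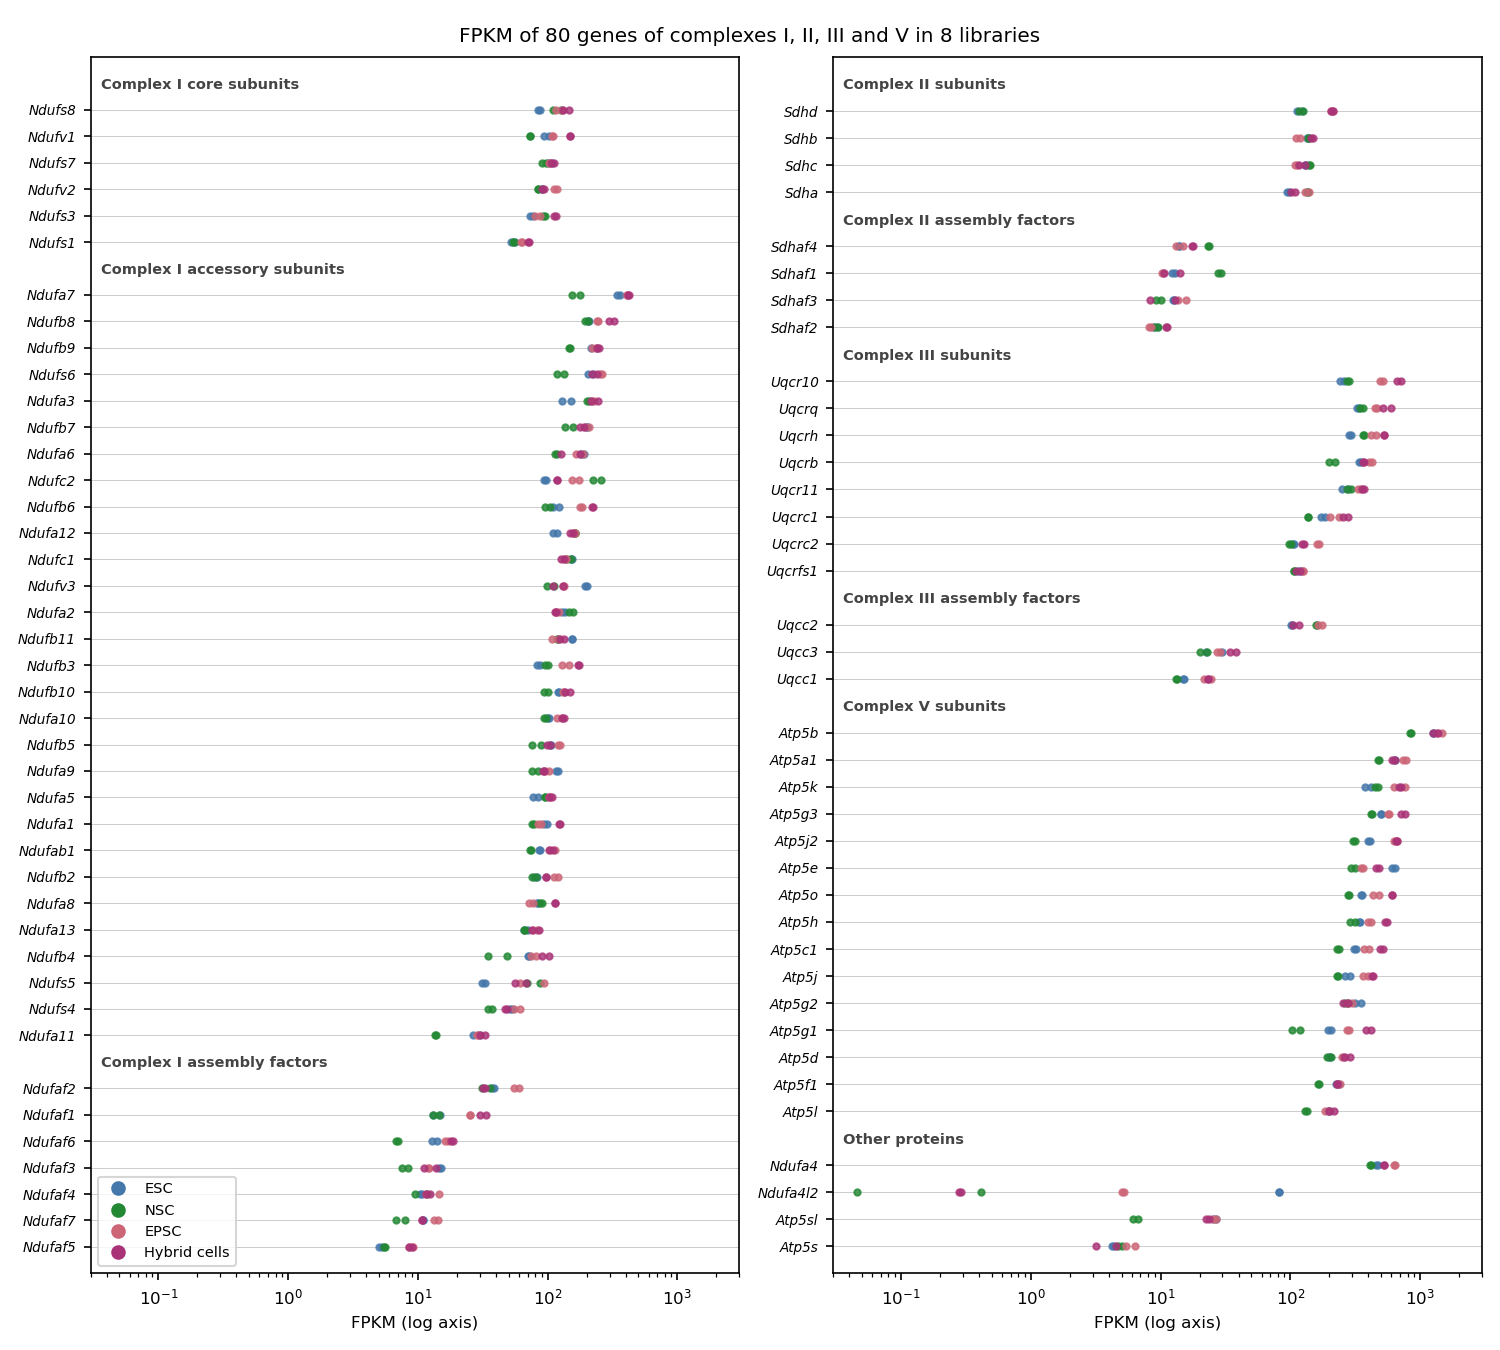
FPKM (log axis) of 80 of the genes, by complex, with 1 point per library and 1 colour per group. Subunits have a median of 152.0 FPKM and assembly factors one of 14.9 FPKM, and Ndufa4l2 spreads from 0.0456 FPKM in an NSC library to 81.7 FPKM in an ESC library.

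A share of the FPKM within a library does not depend on the scale between libraries. The 81 genes took 2.27% ± 0.0191 (SD) of all FPKM in ESCs, 2.60% ± 0.0275 in EPSCs, 2.75% ± 0.0236 in hybrid cells and 2.84% ± 0.00694 in NSCs, with no overlap between groups. By this measure NSCs were highest and ESCs lowest, and the hybrid cells lay between their parents. Summed as deposited FPKM the order was another, with hybrid cells at 17579, EPSCs at 16552, ESCs at 13847 and NSCs at 11795. With 2 libraries a group, the smallest p an exact permutation test can give is 0.333, so shares are given with their spread only.

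The complexes did not share one order. Complex II had its largest share in NSCs, at 0.146% ± 0.00295 (SD), against 0.0998% ± 0.000110 in hybrid cells, 0.0966% ± 0.00157 in EPSCs and 0.0867% ± 0.000349 in ESCs. Complex I was likewise largest in NSCs (0.962%), followed by hybrid cells (0.821%), EPSCs (0.795%) and ESCs (0.730%), where the higher EPSC library (0.803%) lay just under the lower hybrid library (0.811%). Complex III took 0.498% in hybrid cells and 0.488% in NSCs, whose libraries overlapped, then 0.454% in EPSCs and 0.332% in ESCs. Complex V was largest in hybrid cells at 1.25% ± 0.0151, level in EPSCs (1.15%) and NSCs (1.14%), whose libraries overlapped, and lowest in ESCs (1.03%).

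**Figure D2:**
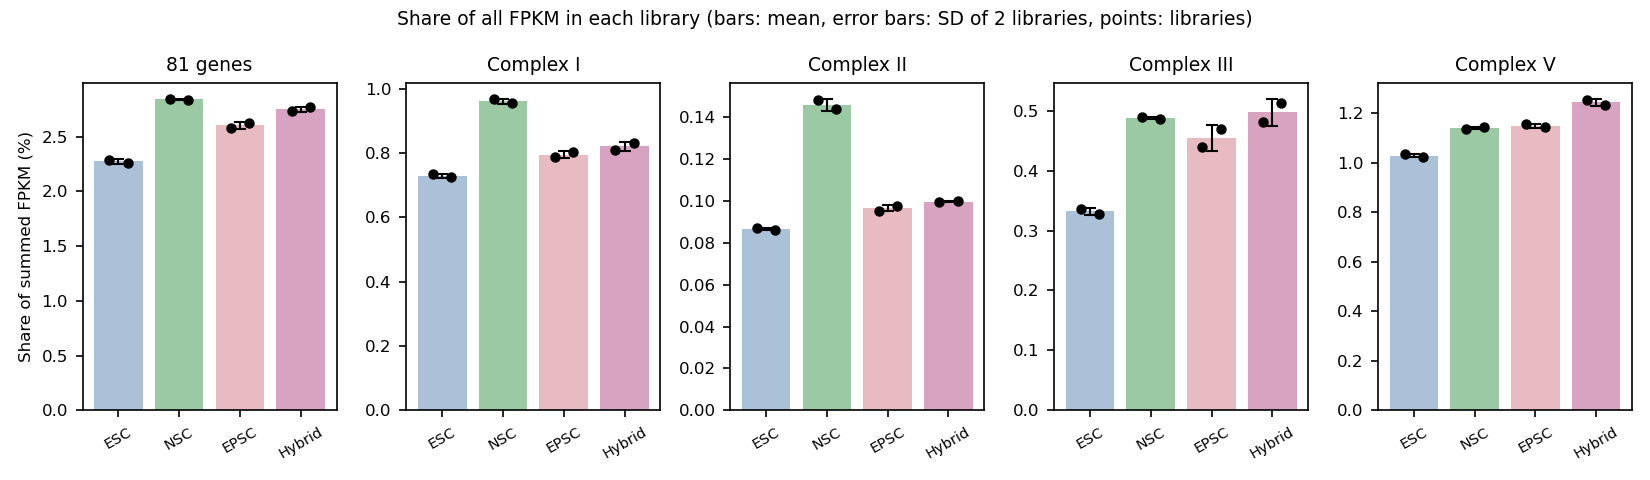
Share of all FPKM in each library (%), for all 81 genes and for complexes I, II, III and V. Bars are means, error bars SDs of 2 libraries and points libraries. Complexes I and II are largest in NSCs and complex V is largest in hybrid cells.

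Against NSCs, the deposited FPKM put most of the genes higher in EPSCs and in hybrid cells and 49.4% of them in ESCs, and with each library scaled to the same sum more of them were lower than higher, as was so of all genes tested. In EPSCs, 58 of the 81 genes (71.6%) were called higher and 8 lower, where 45.2% and 41% of all genes tested were, but 17 higher and 40 lower after scaling to a sum of 1000000, where 30.7% and 56.8% of all genes were, and 27 higher and 33 lower after quantile normalization, where 44.7% and 40.8% were. In hybrid cells the counts were 59 higher and 8 lower (background 44.5% and 42%), but 22 and 41 with equal sums (30.3% and 57.6%) and 28 and 31 after quantile normalization (44% and 41.3%). In ESCs they were 40 higher and 16 lower (background 42.8% and 41.9%), but 11 and 56 (29.4% and 56.6%), and 23 and 40 (43.5% and 40.5%). A call is an adjusted p under 0.05 in limma on log2(FPKM + 1), and all fold changes below are on that scale. Equal sums moved the median of all genes from 0.08 to −0.48 in EPSCs, from 0.06 to −0.51 in hybrid cells and from 0.03 to −0.47 in ESCs, and the class counts with equal sums moved with them. The 9 feeder fibroblast markers, all below 1 FPKM in NSCs, summed to 1.09 and 1.23 FPKM there, 83.3 and 80.5 FPKM in EPSCs, 319 and 238 FPKM in hybrid cells and 11.002 and 12.203 FPKM in ESCs, and their part in these results was not tested.

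Relative to the median of all genes, the median of the 81 genes stood 0.37 higher in EPSCs than in NSCs as deposited and 0.32 higher with equal sums, and −0.13 after quantile normalization. For hybrid cells the same values were 0.34, 0.33 and −0.13, and for ESCs 0.14, 0.10 and −0.18. Quantile normalization forces the most abundant genes, where these subunits lie, to one distribution in every library. By the rule in the study's methods, a mean above 3 FPKM and a change of more than 3-fold, EPSCs differed from NSCs in Ndufa4l2 and Atp5sl (28.8% of all genes tested passed it), hybrid cells in Atp5sl and Atp5g1 (29%), and ESCs in Ndufa4l2 and Atp5sl (27.6%), all higher than in NSCs. With both thresholds at 2, the values the study's results give beside its own counts, 9 members passed in EPSCs (47.3% of all genes tested), 15 in hybrid cells (48%) and 8 in ESCs (45.1%).

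Some genes kept their call under all 4 scalings, the deposited values, median-of-ratios factors, equal sums and quantile normalization. Against NSCs these were 15 higher and 8 lower genes in EPSCs, where 29.7% and 37.3% of all genes tested did so, 20 and 8 in hybrid cells (29.1% and 38.4%), and 11 and 15 in ESCs (28.4% and 37.6%). In percent of the 81 genes these were 18.5% and 9.88%, 24.7% and 9.88%, and 13.6% and 18.5%. The median-of-ratios factors of the libraries were 0.983 to 1.016. That scaling therefore lay close to the deposited values and was hardly a separate check. In the sentences below, a call in all 4 scalings refers to the genes that kept their call.

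Against NSCs, the median of the complex II subunits was the lowest of the 4 complexes in each pluripotent group, as deposited, with equal sums and after quantile normalization. In EPSCs the median of complex V stood 0.74 above that of complex II as deposited, 0.74 with equal sums and 0.48 after quantile normalization, and that of complex III stood 0.67, 0.67 and 0.60 above it. In hybrid cells complex V stood 0.70, 0.71 and 0.48 above complex II, and complex III 0.65, 0.65 and 0.47. In ESCs complex V stood 0.44, 0.44 and 0.33 above complex II, whereas complex III stood 0.07, 0.07 and 0.09 above it. The order of the other classes changed with the scale, and in EPSCs the medians against NSCs were 0.59 for complex V, 0.53 for complex III, 0.37 for the accessory and 0.15 for the core subunits of complex I as deposited, but −0.20, −0.07, −0.06 and −0.28 after quantile normalization. Complex V stood 0.44 above the complex I core subunits as deposited and 0.08 after quantile normalization.

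**Figure D3:**
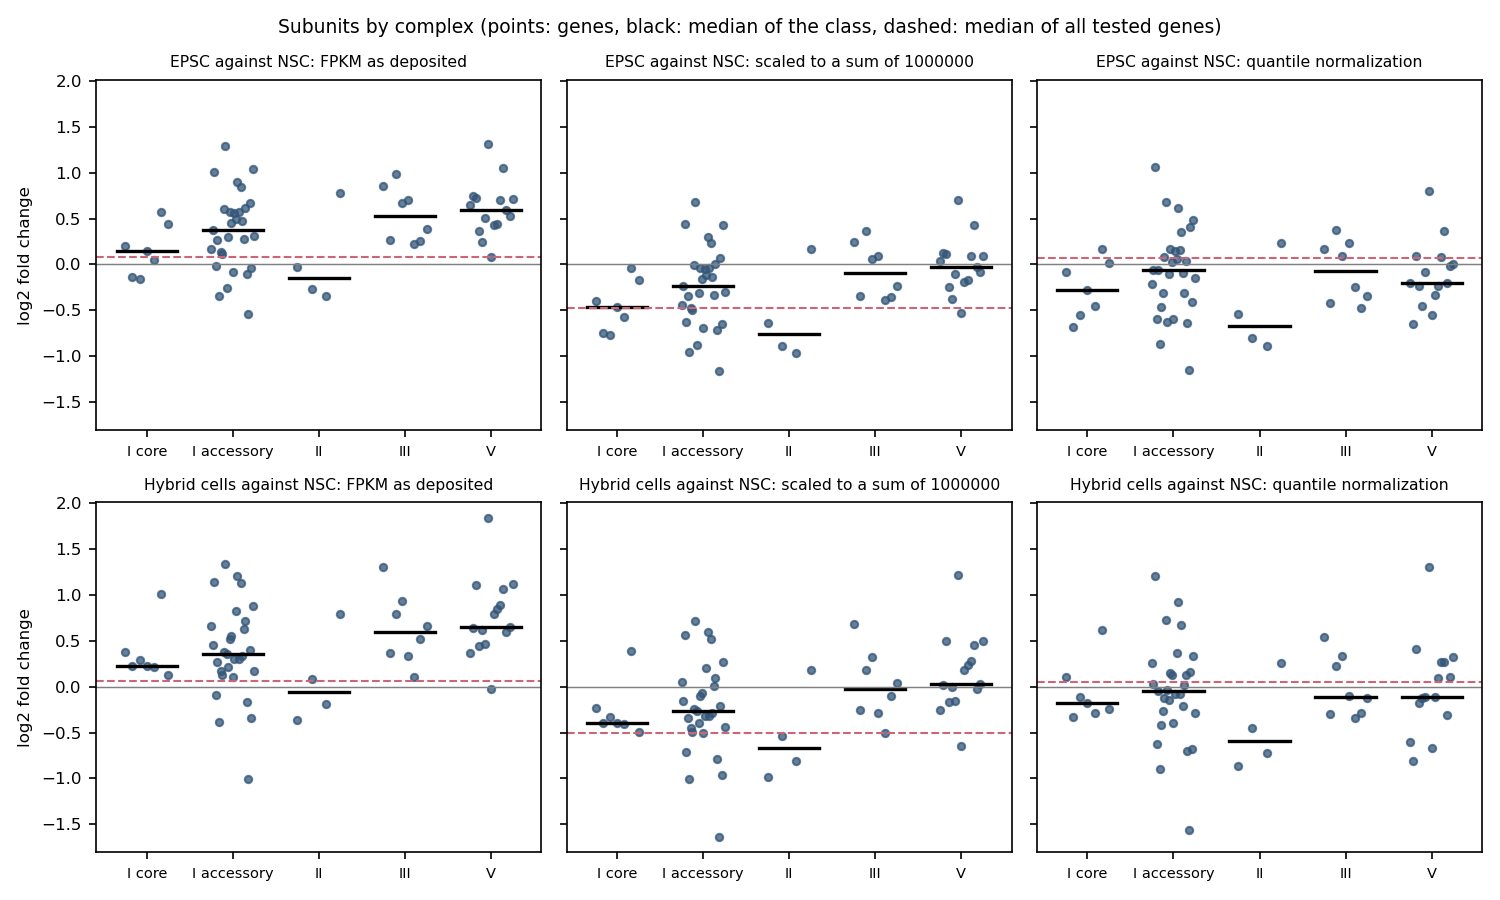
Log2 fold change of each subunit in EPSCs and hybrid cells against NSCs, by complex, as deposited, with equal sums and after quantile normalization. Points are genes, black marks class medians and the dashed line the median of all tested genes. The complex II median is the lowest in each panel, and most of the other medians lie above 0 as deposited and below 0 under another scaling.

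In complex I, the core subunits carry the flavin and iron-sulfur clusters that move electrons, and the accessory subunits surround them. As deposited, 3 of 7 core subunits were called higher and 1 lower in EPSCs than in NSCs, 7 and 0 in hybrid cells, and 2 and 3 in ESCs, beside 45.2% and 41%, 44.5% and 42%, and 42.8% and 41.9% of all genes tested. The shares called higher in EPSCs (42.9%) and ESCs (28.6%) were below those of all genes. With equal sums they were 0 higher and 6 lower, 1 and 6, and 0 and 6, beside 30.7% and 56.8%, 30.3% and 57.6%, and 29.4% and 56.6% of all genes. Ndufv1, which binds the flavin that accepts electrons from NADH, measured 103 and 94.0 FPKM in ESCs, 73.5 and 72.6 in NSCs, 109.8 and 108 in EPSCs and 149 and 148 in hybrid cells. The hybrid libraries were the highest and the NSC libraries the lowest, and the log2 fold change over NSCs was 1.01 ± 0.06 (SE, adjusted p = 1.08e-06) in hybrid cells, a call kept in all 4 scalings, whereas those of 0.57 in EPSCs and 0.43 in ESCs turned to −0.04 and −0.12 with equal sums. Ndufs3, of the arm that reaches ubiquinone, measured 76.5 and 73.1 FPKM in ESCs, 94.7 and 91.7 in NSCs, 86.9 and 80.1 in EPSCs and 116 and 112 in hybrid cells. It was lower in ESCs than in NSCs, at −0.31 ± 0.06 (SE, adjusted p = 0.0013), and lower in EPSCs than in NSCs, at −0.16 ± 0.06 (SE, adjusted p = 0.034), both in all 4 scalings. The EPSC call was lost in a fit of EPSCs and NSCs alone or when an NSC, an ESC or the second EPSC library was left out. Ndufs8, an iron-sulfur subunit, was lower in ESCs at −0.47 ± 0.09 (SE, adjusted p = 0.0013) under all 4 scalings. For Ndufv2 in EPSCs (0.44), Ndufs1 in hybrid cells (0.38) and Ndufs7 in ESCs (0.16), the higher level in FPKM turned to −0.17, −0.23 and −0.39 with equal sums. The Ndufs7 call was also lost without the first ESC, the second NSC or either EPSC library.

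Of the 29 accessory subunits of complex I, 20 were called higher and 3 lower in EPSCs, the same counts in hybrid cells, and 16 and 7 in ESCs, beside 45.2% and 41%, 44.5% and 42%, and 42.8% and 41.9% of all genes tested. With equal sums they were 4 and 16 (13.8% and 55.2%), 6 and 17 (20.7% and 58.6%), and 4 and 19 (13.8% and 65.5%), beside 30.7% and 56.8%, 30.3% and 57.6%, and 29.4% and 56.6%. Ndufa7, of the NADH-oxidizing module, measured 363 and 341 FPKM in ESCs, 177 and 155 in NSCs, 405 and 408 in EPSCs and 419.9 and 423 in hybrid cells. The NSC libraries were the lowest, with log2 fold changes of 1.34 ± 0.07 (SE, adjusted p = 8.44e-07) in hybrid cells, 1.29 in EPSCs and 1.08 in ESCs, each called in all 4 scalings. Ndufs6, a zinc-binding subunit of that module, was higher in EPSCs by 1.04 ± 0.08 (SE, adjusted p = 6.58e-06) and Ndufa11, of the membrane arm, in ESCs by 1.00 ± 0.08 (SE, adjusted p = 7.44e-06). Both genes were called higher in each pluripotent group in all 4 scalings. Ndufb4, at the far end of the membrane arm, was higher in hybrid cells by 1.21 ± 0.14 (SE, adjusted p = 8.77e-05), with 16.0% of its transcript sequence shared with another gene.

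Ndufc2, a small subunit of the membrane arm, went the other way. It measured 97.2 and 93.5 FPKM in ESCs, 224 and 257 in NSCs, 175 and 155 in EPSCs and 119 and 118 in hybrid cells. NSCs were highest, EPSCs came next and no groups overlapped. The log2 fold change against NSCs was −1.33 ± 0.08 (SE, adjusted p = 2.32e-06) in ESCs, −1.01 ± 0.08 (SE, adjusted p = 1.06e-05) in hybrid cells and −0.54 ± 0.08 (SE, adjusted p = 4.33e-04) in EPSCs, each called in all 4 scalings. Ndufa2, a thioredoxin-like subunit, was lower than in NSCs, at −0.34 in EPSCs and −0.39 in hybrid cells, also in all 4 scalings. Ndufs5, at the intermembrane face, measured 69.6 and 87.9 FPKM in NSCs and 33.0 and 31.0 in ESCs and was lower in ESCs, at −1.26 ± 0.20 (SE, adjusted p = 5.84e-04), with 12.7% of its sequence shared with another gene.

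Of the 7 assembly factors of complex I, 6 were called higher in FPKM than in NSCs for EPSCs, 5 for hybrid cells and 3 (42.9%) for ESCs, with none lower. Of all genes tested, 45.2% were higher and 41% lower, 44.5% and 42%, and 42.8% and 41.9%. With equal sums 3 were higher and 1 lower, 2 and 2, and 2 and 4, beside 30.7% and 56.8%, 30.3% and 57.6%, and 29.4% and 56.6%. Ndufaf6, needed for early assembly, measured 13.9 and 12.8 FPKM in ESCs, 7.0 and 6.77 in NSCs, 17.0 and 16.2 in EPSCs and 17.9 and 18.5 in hybrid cells. It was above NSCs by 1.28 ± 0.07 (SE, adjusted p = 9.15e-07) in hybrid cells, 1.16 in EPSCs and 0.86 in ESCs, in all 4 scalings. Ndufaf1, of the complex that builds the membrane arm, measured 14.8 and 13.1 FPKM in ESCs, 13.1 and 14.6 in NSCs, 25.2 and 25.3 in EPSCs and 30.3 and 33.5 in hybrid cells. ESC and NSC libraries overlapped, and hybrid cells stood 1.15 ± 0.09 (SE, adjusted p = 6.14e-06) above NSCs. Ndufaf7, a methyltransferase needed for complex I assembly, was 0.83 ± 0.08 (SE, adjusted p = 2.93e-05) higher in EPSCs, and Ndufaf3 was 0.82 ± 0.10 (SE, adjusted p = 1.24e-04) higher in ESCs, both in all 4 scalings.

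Complex II was split within itself. Sdha binds flavin and oxidizes succinate, Sdhb carries the iron-sulfur clusters, and Sdhc and Sdhd anchor the enzyme in the membrane. Sdhd measured 123 and 112 FPKM in ESCs, 125 and 116 in NSCs, 212 and 205 in EPSCs and 207 and 213 in hybrid cells. The EPSC and hybrid libraries lay between 205 and 213 FPKM and the ESC and NSC libraries between 112 and 125 FPKM, so the groups fell into pairs that overlapped within themselves. Sdhd was higher than in NSCs by 0.78 ± 0.06 (SE, adjusted p = 9.79e-06) in EPSCs and 0.80 ± 0.06 (SE, adjusted p = 8.79e-06) in hybrid cells, in all 4 scalings, and stood at −0.04 in ESCs, which missed the threshold (adjusted p = 0.56).

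Its partners did not follow. Sdha measured 97.7 and 94.9 FPKM in ESCs, 138 and 133 in NSCs, 138 and 129 in EPSCs and 109 and 102 in hybrid cells. It was lower than in NSCs, at −0.36 ± 0.06 (SE, adjusted p = 5.75e-04) in hybrid cells and −0.49 ± 0.06 (SE, adjusted p = 1.02e-04) in ESCs, in all 4 scalings. In EPSCs it stood at −0.02 (adjusted p = 0.72) and its libraries overlapped those of NSCs. Sdhb measured 136 and 135 FPKM in ESCs, 140.0 and 138 in NSCs, 119 and 111 in EPSCs and 144 and 150.5 in hybrid cells. EPSCs were lowest, at −0.27 ± 0.05 (SE, adjusted p = 0.0015) against NSCs. Sdhc measured 133 and 129 FPKM in ESCs, 142 and 139 in NSCs, 108 and 113 in EPSCs and 129 and 117 in hybrid cells. It was lower than in NSCs, at −0.35 ± 0.06 (SE, adjusted p = 7.52e-04) in EPSCs and −0.19 ± 0.06 (SE, adjusted p = 0.016) in hybrid cells, in all 4 scalings, with the ESC value at −0.10 (adjusted p = 0.14). The ratio of Sdhd to the mean of the other 3 subunits, a measure chosen after the levels were seen, was 1.01 and 0.935 in ESCs, 0.893 and 0.851 in NSCs, 1.75 and 1.74 in EPSCs and 1.63 and 1.73 in hybrid cells. It does not depend on the scale between libraries, and ESCs and NSCs lay at or below 1.01 while EPSCs and hybrid cells lay at or above 1.63.

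Among the complex II assembly factors, Sdhaf1 and Sdhaf4 were higher in NSCs. Sdhaf1, which helps load the iron-sulfur clusters of Sdhb, measured 12.2 and 12.9 FPKM in ESCs, 27.8 and 29.3 in NSCs, 10.3 and 10.4 in EPSCs and 10.7 and 14.2 in hybrid cells. The NSC libraries stood apart from the other 6, and the log2 fold change was −1.15 ± 0.12 (SE, adjusted p = 3.85e-05) in hybrid cells, −1.37 in EPSCs and −1.12 in ESCs. Of its exon bases, 69.6% overlap a gene on the other strand, and the strand setting of the counting was not given in the sources used here. Sdhaf4, which chaperones Sdha, was lower than in NSCs, at −0.40 for hybrid cells, −0.70 for EPSCs and −0.71 for ESCs, and both genes were called in all 4 scalings. Sdhaf3 in EPSCs (0.56) and Sdhaf2 in hybrid cells (0.25) were called higher as deposited and were −0.0022 and −0.33 with equal sums, and the Sdhaf3 call was also lost without an NSC library or the second EPSC library and the Sdhaf2 call without the second NSC library.

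In complex III, all 8 subunits were called higher in EPSCs than in NSCs and 7 in hybrid cells, with none lower, beside 45.2% and 44.5% of all genes higher, and with equal sums 2 were higher and 4 lower, and 3 and 3, beside 30.7% and 56.8%, and 30.3% and 57.6%. In ESCs 3 (37.5%) were higher and 2 (25%) lower as deposited, below the 42.8% and 41.9% of all genes, and 1 and 6 with equal sums, beside 29.4% and 56.6%. Uqcr10, a small subunit beside the iron-sulfur protein, measured 259 and 243 FPKM in ESCs, 281 and 276 in NSCs, 495 and 517 in EPSCs and 664 and 716 in hybrid cells. The hybrid libraries were highest and the EPSC libraries next, well above ESCs and NSCs. The log2 fold change over NSCs was 1.31 ± 0.06 (SE, adjusted p = 4.06e-07) in hybrid cells and 0.86 ± 0.06 (SE, adjusted p = 4.12e-06) in EPSCs, in all 4 scalings. Its ratio to Uqcrfs1, the Rieske iron-sulfur subunit, was 2.13 and 2.14 in ESCs, 2.64 and 2.58 in NSCs, 3.98 and 4.14 in EPSCs and 5.56 and 6.47 in hybrid cells, with no overlap, and this ratio too was chosen after the levels were seen.

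Uqcrb, which lies beside the ubiquinone pocket of complex III, measured 348 and 338 FPKM in ESCs, 198 and 223 in NSCs, 426 and 406 in EPSCs and 365 and 368 in hybrid cells and was higher than in NSCs by 0.98 ± 0.07 (SE, adjusted p = 3.07e-06) in EPSCs and 0.71 in ESCs, in all 4 scalings. It was also called higher in hybrid cells than in NSCs in all 4 scalings. Uqcrc1, a core protein, was higher in hybrid cells by 0.94 ± 0.09 (SE, adjusted p = 1.87e-05) in all 4 scalings, while its value of 0.38 in ESCs turned to −0.17 with equal sums. Uqcrh, the hinge protein, was lower in ESCs than in NSCs, at −0.35 ± 0.06 (SE, adjusted p = 7.12e-04), in all 4 scalings. Uqcc2, an assembly factor for cytochrome b, measured 104 and 101.3 FPKM in ESCs, 159 and 159 in NSCs, 164 and 175 in EPSCs and 105 and 117 in hybrid cells. EPSCs and NSCs stood together above ESCs and hybrid cells, and the fold change against NSCs was −0.63 ± 0.06 (SE, adjusted p = 3.41e-05) in ESCs and −0.52 ± 0.06 (SE, adjusted p = 1.04e-04) in hybrid cells, in all 4 scalings.

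In complex V, 14 of 15 subunits were called higher in EPSCs than in NSCs, 14 in hybrid cells and 13 in ESCs, with none lower, beside 45.2%, 44.5% and 42.8% of all genes higher. With equal sums 4 (26.7%) were higher and 6 (40%) lower, 7 (46.7%) and 3 (20%), and 2 (13.3%) and 10 (66.7%), beside 30.7% and 56.8%, 30.3% and 57.6%, and 29.4% and 56.6%. The 5 subunits of the F1 head took 0.499% of all FPKM in ESCs, 0.496% in NSCs and 0.498% in EPSCs and in hybrid cells, with ESCs above NSCs in both libraries and the libraries of the other pairs compared overlapping. The peripheral stalk took 0.283% in hybrid cells, 0.233% in EPSCs, 0.235% in NSCs and 0.197% in ESCs, and the c ring 0.219%, 0.178%, 0.194% and 0.170%. Atp5o, the stalk protein OSCP, was 1.12 ± 0.06 (SE, adjusted p = 1.28e-06) higher in hybrid cells than in NSCs in all 4 scalings. Of its transcript sequence, 77% is shared with other annotated entries, which include another entry of Atp5o itself. Atp5j2, a membrane subunit, was 1.05 ± 0.05 (SE, adjusted p = 7.36e-07) higher in EPSCs and 1.07 higher in hybrid cells than in NSCs, in all 4 scalings. Atp5e, the ε subunit of the central stalk, measured 636 and 612 FPKM in ESCs, 291 and 317 in NSCs, 353 and 366 in EPSCs and 479 and 453 in hybrid cells and was 1.04 ± 0.06 (SE, adjusted p = 1.77e-06) higher in ESCs than in NSCs in all 4 scalings.

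The 3 genes of the c ring differed in their mix of transcripts between the groups. Atp5g1, Atp5g2 and Atp5g3 encode proteins that differ in the import sequence and give the same mature c subunit. Atp5g1 measured 205 and 195 FPKM in ESCs, 104 and 118 in NSCs, 274 and 281 in EPSCs and 418 and 381 in hybrid cells. The groups did not overlap, with NSCs lowest and hybrid cells highest. The fold change over NSCs was 1.84 ± 0.08 (SE, adjusted p = 2.43e-07) in hybrid cells, 1.31 ± 0.08 (SE, adjusted p = 1.45e-06) in EPSCs and 0.85 ± 0.08 (SE, adjusted p = 1.98e-05) in ESCs, each called in all 4 scalings.

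Atp5g2 measured 348 and 316 FPKM in ESCs, 276 and 265 in NSCs, 300.05 and 274 in EPSCs and 281 and 253 in hybrid cells, which passed the threshold in ESCs (0.29) and not in EPSCs (0.08) or hybrid cells (−0.02) against NSCs as deposited. With equal sums its values in ESCs, EPSCs and hybrid cells were −0.26, −0.53 and −0.64. After quantile normalization they were −0.13, −0.55 and −0.67. The EPSC value passed the threshold under both scalings, and the hybrid value was lower still under both. Atp5g3, the most abundant of the 3, measured 503 and 502 FPKM in ESCs, 420.0 and 424 in NSCs, 563 and 573 in EPSCs and 758 and 712 in hybrid cells. Of the summed FPKM of the 3 genes, Atp5g1 made up 19.4% and 19.3% in ESCs, 13.0% and 14.7% in NSCs, 24.1% and 24.9% in EPSCs and 28.7% and 28.3% in hybrid cells. Atp5g2 made up 32.9% and 31.2%, 34.5% and 32.8%, 26.4% and 24.3%, and 19.3% and 18.8% in the same order, while Atp5g3 stayed between 47.7% and 52.9%. Atp5g1 stood above Atp5g2 in both hybrid libraries and, by a narrow margin, in the second EPSC library, and below it in the other 5. For each of the 5 comparisons the exact permutation p of the Atp5g1 share was 0.333, the smallest the design allows. Atp5g2 shares 34.7% of its transcript sequence with other annotated genes and Atp5g1 5.92%.

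**Figure D4:**
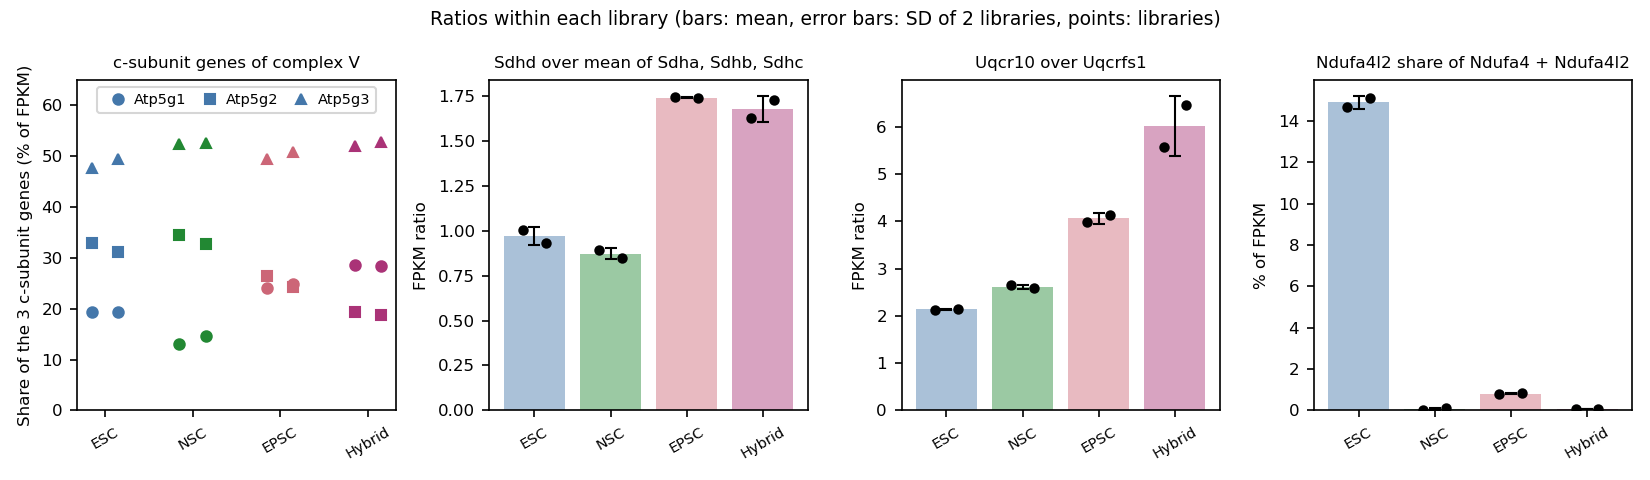
Ratios within each library: the share of each c-subunit gene in the FPKM of the 3 genes (%), Sdhd over the mean of Sdha, Sdhb and Sdhc, and Uqcr10 over Uqcrfs1. Points are libraries, bars means and error bars SDs of 2 libraries. Atp5g1 lies between 13.0% in an NSC library and 28.7% in a hybrid library, and the Sdhd ratio is 1.63 to 1.75 in EPSC and hybrid libraries and at most 1.01 elsewhere.

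The genes that share a symbol but were counted apart include the one with the widest range. Ndufa4l2, a paralog of the cytochrome oxidase component Ndufa4 that is known to be induced by hypoxia, measured 81.2 and 81.7 FPKM in ESCs, 0.0456 and 0.415 in NSCs, 5.07 and 5.19 in EPSCs and 0.277 and 0.291 in hybrid cells. It was near 0 in NSCs and hybrid cells, low in EPSCs and high in ESCs. Its fold change over NSCs was 6.08 ± 0.13 (SE, adjusted p = 1.20e-08) in ESCs and 2.33 ± 0.13 (SE, adjusted p = 1.37e-06) in EPSCs, in all 4 scalings, and 0.08 in hybrid cells (adjusted p = 0.6). Ndufa4 itself measured 471 and 458 FPKM in ESCs, 412 and 415.2 in NSCs, 639 and 627 in EPSCs and 524 and 528 in hybrid cells, and its higher value in hybrid cells than in NSCs (0.35) turned to −0.27 with equal sums. Atp5sl, which despite its name takes part in building the membrane arm of complex I, measured 26.7 and 25.2 FPKM in ESCs, 6.18 and 6.74 in NSCs, 26.6 and 25.2 in EPSCs and 23.5 and 22.3 in hybrid cells. NSCs were lowest by 1.85 ± 0.07 (SE, adjusted p = 1.34e-07) against EPSCs, 1.68 against hybrid cells and 1.86 against ESCs, in all 4 scalings.

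The hybrid cells were then set against EPSCs, whose medium and feeders they shared, where the summed FPKM of the libraries was alike. In hybrid cells 23 of the 81 genes (28.4%) were called higher and 14 (17.3%) lower than in EPSCs, against 22.5% and 21.9% of all genes tested. The median of the 81 genes was 0.04 and that of all genes 0.00. All of these calls but that of Uqcrc1 were kept in the 4 scalings. By the rule of the methods 1 gene passed, Ndufa4l2, against 1.59% of all genes tested, and 1 with thresholds of 2, against 5.73%. The 9 feeder fibroblast markers summed to 319 and 238 FPKM in hybrid cells and 83.3 and 80.5 FPKM in EPSCs, with 1 and 2 of the 9 below 1 FPKM and Col1a1 at 46.2 to 61.0 FPKM and 13.7 to 15.7 FPKM, and their part in the result was not tested. The 7 neural markers summed to 11.4 and 10.6 FPKM in hybrid cells and 19.3 and 17.8 FPKM in EPSCs, with Fabp7 and Sox1 at most 0.294 FPKM in both groups and the most abundant, Slc1a3 and Olig2, lower in hybrid cells (3.09 to 3.47 and 3.56 to 4.06 FPKM) than in EPSCs (6.26 to 7.21 and 5.89 to 6.09 FPKM), and their part was not tested either.

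By class, 4 of 7 complex I core subunits were higher and 1 lower in hybrid cells, 5 and 4 of 29 accessory subunits, 4 and 1 of 8 complex III subunits, 6 and 1 of 15 complex V subunits and 1 and 1 of 4 complex II subunits, beside 22.5% and 21.9% of all genes tested. The accessory subunits, at 17.2% and 13.8%, lay below those shares. Ndufa8, an intermembrane-facing accessory subunit, measured 82.6 and 83.7 FPKM in ESCs, 87.4 and 90.9 in NSCs, 72.0 and 76.5 in EPSCs and 114 and 115 in hybrid cells. The hybrid libraries were the highest of all 8 and the EPSC libraries the lowest, and the fold change was 0.62 ± 0.05 (SE, adjusted p = 2.51e-04). Ndufa1, at the base of the membrane arm, was higher by 0.50 ± 0.05 (SE, adjusted p = 5.45e-04), Ndufs3 by 0.45 ± 0.06 (SE, adjusted p = 0.0012) and Ndufv1 by 0.44 ± 0.06 (SE, adjusted p = 0.0011). Ndufv2, the iron-sulfur partner of Ndufv1, was lower, at −0.32 ± 0.05 (SE, adjusted p = 0.0023), as were Ndufc2, at −0.47 ± 0.08 (SE, adjusted p = 0.004), and Ndufs4, of the NADH-oxidizing module, at −0.27 ± 0.07 (SE, adjusted p = 0.015). The NADH-oxidizing pair Ndufv1 and Ndufv2 thus moved in opposite directions.

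Among assembly factors, Ndufaf2, a chaperone of late complex I assembly, measured 38.8 and 37.1 FPKM in ESCs, 31.2 and 36.0 in NSCs, 55.2 and 59.9 in EPSCs and 33.1 and 31.9 in hybrid cells. EPSCs stood above the other 3 groups, and the hybrid value was −0.80 ± 0.08 (SE, adjusted p = 4.52e-04). Of its exon bases, 65.6% overlap a gene on the other strand. Uqcc2 was lower in hybrid cells, at −0.61 ± 0.06 (SE, adjusted p = 5.19e-04), and so was Ndufaf7, at −0.33 ± 0.08 (SE, adjusted p = 0.014), whereas Ndufaf1 was higher by 0.32 ± 0.09 (SE, adjusted p = 0.02) and Sdhaf2, which attaches the flavin of Sdha, by 0.37 ± 0.07 (SE, adjusted p = 0.0051). The assembly factors together took 0.0653% of all FPKM in EPSCs and 0.0545% in hybrid cells, while subunits took 2.43% and 2.61%. Uqcc2 and Ndufaf2 together fell by more than the sum of the 14 factors did, and the median factor measured 14.7 FPKM in EPSCs and 15.5 FPKM in hybrid cells. Of the 14, 3 (21.4%) were called higher and 3 (21.4%) lower, near the 22.5% and 21.9% of all genes tested.

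Within complex II the hybrid cells had Sdha lower, at −0.34 ± 0.06 (SE, adjusted p = 0.0036), and Sdhb higher by 0.35 ± 0.05 (SE, adjusted p = 0.002), with Sdhd at 0.01 (adjusted p = 0.88) and Sdhc at 0.16 (adjusted p = 0.064). In complex III, Uqcr10 was higher by 0.45 ± 0.06 (SE, adjusted p = 0.0014) and Uqcrq by 0.28 ± 0.07 (SE, adjusted p = 0.018), and Uqcrc2, the second core protein, was lower, at −0.38 ± 0.05 (SE, adjusted p = 0.0012). In complex V, Atp5g1 was higher by 0.52 ± 0.08 (SE, adjusted p = 0.0019) and Atp5h, subunit d of the stalk, by 0.41 ± 0.06 (SE, adjusted p = 0.0016), and Atp5a1 was lower, at −0.28 ± 0.05 (SE, adjusted p = 0.0053). Ndufa4l2 was lower, at −2.25 ± 0.13 (SE, adjusted p = 9.86e-05), and Atp5s at −0.51 ± 0.14 (SE, adjusted p = 0.021). With hybrid cells and EPSCs fitted without the other groups, 16 genes were called higher and 8 lower. The change over all genes in that fit was not compared, so whether the smaller counts are particular to this gene set was not tested. In the same fit, the calls of Ndufs4, Ndufaf1, Ndufaf7, Sdhaf2, Uqcrq, Atp5a1 and Atp5s were lost. Ndufs4, Ndufaf1, Ndufaf7 and Uqcrq also missed the threshold without the first EPSC library, Ndufaf1 and Atp5s without the second, Atp5s without the first hybrid library, and Ndufs4, Ndufaf1 and Uqcrq without the second.

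**Figure D5:**
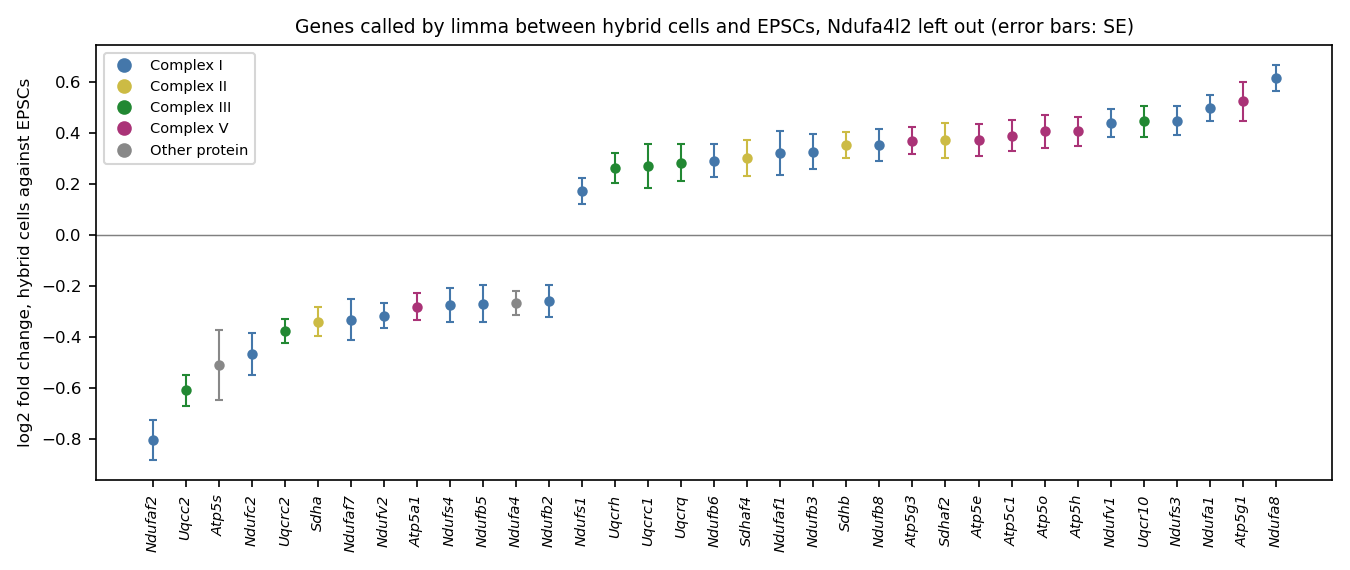
Log2 fold change of hybrid cells against EPSCs for 35 of the genes called by limma, coloured by complex, with SE bars. Ndufa4l2, at −2.25, is left out for scale. Genes of complexes I, III and V lie on both sides of 0, from Ndufa8 at 0.62 to Ndufaf2 at −0.80.

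EPSCs and ESCs, both pluripotent, also differed, as 2 lines in 2 media. In EPSCs 47 of the 81 genes (58.0%) were called higher and 11 (13.6%) lower than in ESCs, against 33.7% and 27.3% of all genes tested, with a median of 0.25 for the 81 genes and 0.04 for all genes. Under all 4 scalings 32 were higher and 11 lower, against 28.7% and 26.6%. The count of lower genes fell without either ESC library or without the second EPSC library, and the change over all genes in those fits was not compared. By the rule of the methods 1 gene passed, Ndufa4l2, against 4.72% of all genes tested, and 3 with thresholds of 2, against 13%. The 9 feeder fibroblast markers summed to 83.3 and 80.5 FPKM in EPSCs and 11.002 and 12.203 FPKM in ESCs, with 2 and 5 to 6 of the 9 below 1 FPKM, and their part in the result was not tested.

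In complex III 7 of 8 subunits were higher and none lower, in complex I 4 of 7 core subunits, 15 of 29 accessory subunits and 5 of 7 assembly factors, in complex V 10 of 15, and in complex II 2 of 4 subunits, with 0, 6, 1, 1 and 2 lower in the last 5 classes, beside 33.7% and 27.3% of all genes tested. Under all 4 scalings 4 of 8 complex III subunits, 3 of 7 core and 10 of 29 accessory subunits and 5 of 7 assembly factors of complex I, 5 of 15 complex V subunits and 2 of 4 complex II subunits were higher, with 0, 0, 6, 1, 1 and 2 lower, beside 28.7% and 26.6% of all genes. The share of complex III in all FPKM was 1.37 times that in ESCs, against 1.14 times for all 81 genes. Uqcr10 was higher by 1.01 ± 0.06 (SE, adjusted p = 1.74e-05), Ndufs5, at 94.1 and 61.2 FPKM in EPSCs, by 1.22 ± 0.20 (SE, adjusted p = 0.0016), Ndufaf1 by 0.81 ± 0.09 (SE, adjusted p = 1.93e-04) and Uqcc2 by 0.72 ± 0.06 (SE, adjusted p = 7.98e-05). Complex II again divided, with Sdhd higher by 0.83 ± 0.06 (SE, adjusted p = 4.91e-05) and Sdha by 0.47 ± 0.06 (SE, adjusted p = 4.18e-04), and Sdhb lower, at −0.23 ± 0.05 (SE, adjusted p = 0.0062), and Sdhc, at −0.25 ± 0.06 (SE, adjusted p = 0.0083), the last a call lost without the first ESC library.

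In complex V, Atp5k, subunit e, was higher by 0.81 ± 0.10 (SE, adjusted p = 4.11e-04) and Atp5j2 by 0.68 ± 0.05 (SE, adjusted p = 5.50e-05), and Atp5e was the 1 subunit called lower, at −0.79 ± 0.06 (SE, adjusted p = 5.21e-05). In complex I, Ndufc2 was higher by 0.78 ± 0.08 (SE, adjusted p = 2.00e-04), Ndufs8 by 0.51 ± 0.09 (SE, adjusted p = 0.0018), Ndufv2 by 0.33 and Ndufaf5 by 0.68. Ndufv3 was lower, at −0.57 ± 0.09 (SE, adjusted p = 0.0015), and Ndufb11 at −0.45 ± 0.07 (SE, adjusted p = 9.16e-04). Ndufaf3 (−0.29) lost its call when any ESC, NSC or EPSC library was left out, and Atp5s (0.37) when the second EPSC library, an ESC library or an NSC library was left out or the values were rescaled. Ndufa4l2 was lower in EPSCs, at −3.75 ± 0.13 (SE, adjusted p = 2.39e-06), and Ndufa4 higher by 0.44 ± 0.05 (SE, adjusted p = 1.92e-04).

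Other genes of the pathway are given beside the shares of all genes tested, which against NSCs were 45.2% higher and 41% lower in EPSCs, 44.5% and 42% in hybrid cells and 42.8% and 41.9% in ESCs, and under all 4 scalings 29.7% and 37.3%, 29.1% and 38.4%, and 28.4% and 37.6%. Of 18 OXPHOS genes outside the symbol rule, 11 were called higher and 4 lower in EPSCs, 13 and 3 in hybrid cells and 9 and 5 in ESCs, but under all 4 scalings 6 and 3, 7 and 3, and 3 and 5. Against EPSCs, hybrid cells had 6 higher and 1 lower, beside 22.5% and 21.9% of all genes tested, and against ESCs, EPSCs had 13 higher and 1 lower, beside 33.7% and 27.3%. Atpif1, the inhibitor of complex V, was higher than in NSCs by 1.29 ± 0.08 (SE) in hybrid cells, 1.04 in EPSCs and 0.77 in ESCs, in all 4 scalings.

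Of 14 regulators of mitochondrial gene expression, EPSCs had 9 higher and 3 lower than NSCs, hybrid cells 11 and 3 and ESCs 10 and 3, and under all 4 scalings 6 and 3, 7 and 3, and 6 and 3. Ppargc1a, a coactivator that drives mitochondrial genes, measured 6.39 and 6.498 FPKM in NSCs and at most 0.0132 FPKM in the other libraries. Its relative Pprc1 went the other way, higher than in NSCs by 2.18 ± 0.08 (SE) in hybrid cells, 1.88 in EPSCs and 1.65 in ESCs, as did Tfam, which packages and transcribes mitochondrial DNA, at 1.09 ± 0.10, 1.34 and 1.28, in all 4 scalings. Between hybrid cells and EPSCs 3 regulators were higher and 1 lower, beside 22.5% and 21.9% of all genes tested. Between EPSCs and ESCs 3 were higher and 2 lower, beside 33.7% and 27.3%. Of 16 genes of the citric acid cycle and pyruvate dehydrogenase, EPSCs had 7 higher and 4 lower than NSCs, hybrid cells 7 and 5 and ESCs 4 and 7, and under all 4 scalings 1 and 4 (6.25% and 25%), 1 and 5 (6.25% and 31.3%), and 1 and 7 (6.25% and 43.8%). Cs, citrate synthase, was lower than in NSCs, at −0.76 ± 0.05 (SE) for hybrid cells, −0.55 for EPSCs and −0.67 for ESCs, in all 4 scalings. Hybrid cells had 3 of the 16 higher and 5 lower than EPSCs, beside 22.5% and 21.9% of all genes tested. EPSCs had 10 higher and none lower than ESCs, beside 33.7% and 27.3%. In all 4 scalings 7 (43.8%) were higher in EPSCs than in ESCs, beside 28.7% of all genes.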

How the data were processed

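Poly-A libraries (TruSeq Stranded mRNA) of 8 samples were sequenced on a NovaSeq. The authors trimmed reads with skewer, aligned them with STAR 2.7.9a to mm10 and deposited FPKM from Cuffnorm (Cufflinks 2.2.1). The annotation, strand setting and library normalization were not given in the sources used here. Steps in the low values put the divisor of the FPKM at about 22 to 32.6 times 1000000 fragments per library, over 2247 genes and for an assumed fragment length. That divisor is the depth only if no other scaling between libraries was applied, and the depth itself was not given.

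The members, lists and named-gene rule were chosen with earlier results of these data known. FPKM were tested as log2(FPKM + 1) with limma 3.58.1 (R 4.3.3), all 4 groups in one fit, eBayes with trend, two-sided, Benjamini-Hochberg adjustment over 13239 genes with a mean of at least 1 FPKM in at least 1 group. Summaries used Python 3.11.15, pandas 2.3.3, numpy 2.4.6, scipy 1.17.1 and matplotlib 3.10.9. The fit was tested on simulated data. Named genes were, per class and comparison, the 2 members with the largest log2 fold change each way among called, non-overlapping members, all complex II subunits, the c-subunit genes, Ndufa4 and Ndufa4l2, and the 2 most and least abundant. The calls shared by 4 scalings, the class contrasts and the Sdhd and Uqcr10 ratios were added after the data were seen. Overlaps with other genes and shared 100-base stretches were computed on GRCm38. Alternatives were other pseudocounts, filters, scalings, thresholds, 2 groups alone, a replicate block, subunits alone and leaving out each library. Of the members, 1 is counted but not reported by name or drawn by itself here.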

Additional observations from a re-analysis of the deposited data

How the results depend on the processing

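Scaling turned the balance of higher and lower genes in the comparisons with NSCs, and thresholds and the choice of members moved counts too. Scaled to a sum of 1000000, the genes called higher and lower were 17 and 40 in EPSCs, 22 and 41 in hybrid cells and 11 and 56 in ESCs, and after quantile normalization 27 and 33, 28 and 31, and 23 and 40. The difference between the median of the 81 genes and that of all genes was 0.318 in EPSCs and 0.095 in ESCs with equal sums, and after quantile normalization −0.126 in EPSCs, −0.134 in hybrid cells, −0.176 in ESCs and 0.074 for EPSCs against ESCs. Without the expression filter it was 0.437, 0.381 and, for EPSCs against ESCs, 0.253, and with a pseudocount of 0.1 it was 0.384 in hybrid cells. With the thresholds of the methods' rule lowered to 2, 9 members passed in EPSCs, 15 in hybrid cells, 8 in ESCs and 3 for EPSCs against ESCs. With equal sums 4 passed in ESCs, and the share of all genes passing with equal sums was not compared. With subunits alone, hybrid cells had 5 genes below NSCs and 8 below EPSCs, beside 42% and 21.9% of all genes tested. The subunit median stood 0.39 and 0.083 above that of all genes. The subunit shares were 2.13% for ESCs, 2.65% for NSCs, 2.43% for EPSCs and 2.61% for hybrid cells. Fitted with their 2 groups alone, hybrid cells had 8 genes below EPSCs, and the change over all genes in that fit was not compared.

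With equal sums the fold change against NSCs became −0.041 for Ndufv1, −0.17 for Ndufv2 and −0.0022 for Sdhaf3 in EPSCs, −0.23 for Ndufs1, −0.33 for Sdhaf2 and −0.27 for Ndufa4 in hybrid cells, and −0.12 for Ndufv1, −0.39 for Ndufs7 and −0.17 for Uqcrc1 in ESCs. After quantile normalization it became −0.52 for Ndufa4 in hybrid cells and −0.11 for Ndufs7 and −0.0068 for Uqcrc1 in ESCs. Of 1414 refits of the named results, 1351 kept direction and call, 51 lost the call and 12 turned. The cause was not tested.

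Leaving out each library in turn gave 55 to 59 higher and 7 to 9 lower genes in EPSCs against NSCs (medians 0.345 to 0.405), 53 to 59 and 7 to 9 in hybrid cells (0.324 to 0.396), 33 to 41 and 13 to 16 in ESCs (0.115 to 0.159), 10 to 15 lower in hybrid cells against EPSCs (0.032 to 0.056) and 5 to 13 lower in EPSCs against ESCs (0.187 to 0.226). With the replicate block, 58 genes were higher and 8 lower in EPSCs than in NSCs, 58 and 8 in hybrid cells, 41 and 16 in ESCs, 25 and 15 in hybrid cells against EPSCs and 46 and 11 in EPSCs against ESCs. The share of all genes called was not compared in the block fit or in the fits without a library. Whether these counts are particular to this gene set was therefore not tested. Same-numbered libraries deviated together with correlations of −0.11 to 0.28 over the 5 comparisons, and with 2 pairs the numbers do not establish a pairing. The block ended the call of Ndufaf3 between EPSCs and ESCs (adjusted p = 0.052). The files give no counts, so no counting interval stands beside a value.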
